A study of Rattus norvegicus with 17 samples.

Results

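The RNA content of hippocampal synaptosomes from adult rats was described from the 5 arrays whose titles and group label read adult, out of 17 arrays in the series. The rats were male Fischer 344 x Brown Norway (F1) hybrids of 12 months, without transgene or drug, which had been tested in the Morris water maze and killed 1 week after it. Each array held the RNA of 1 rat, and all 5 lay on 1 slide, so that differences between rats, synaptosome preparations and arrays cannot be told apart. The other 12 arrays came from aged rats and enter no value given here. Synaptosomes were prepared from whole hippocampus by homogenization in buffered sucrose and differential centrifugation, and an array of the hippocampus before fractionation was not used here, so that no value is an enrichment over the tissue.

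Synaptosomes are nerve endings that pinch off and reseal when brain tissue is homogenized, and they carry the presynaptic terminal with its vesicles and mitochondria, often with a piece of the postsynaptic membrane attached. RNA reaches such compartments from the cell body, and mRNAs of some synaptic proteins, of ribosomal proteins and of mitochondrial proteins made in the nucleus are known in axons and dendrites. A fraction made by differential centrifugation is not pure, since fine processes of astrocytes ensheathe synapses, and membranes of myelin and microglia sediment with them.

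Brightness was read as the deposited average bead signal on a log2 scale, and a probe was taken as detected on an array where its deposited detection p-value was under 0.05. Of the 22226 probes, 9838 (44.3%) were detected on all 5 arrays and 9860 on none. The platform annotation names 12978 genes, each represented here by its brightest probe, and 6941 of them (53.5%) were detected on all 5 arrays, 4615 (35.6%) on none and 1422 on 1 to 4 arrays. Each count of detected list members below is to be read beside the 53.5% over all named genes. The percentile of a gene is its place among those 6941 by mean log2 signal, with 100 for the brightest and 50 for the middle gene at a log2 signal of 8.04. A signal depends on the probe as well as on the transcript, so that a percentile ranks brightness and not copies of RNA, and a dim or undetected probe does not show that the RNA is missing. The arrays differed little in depth, with mean signals from 342 to 387 and 10440 to 11400 detected probes, and their number limits the precision. Replicate 4 stood apart with a mean correlation of 0.988 with the other arrays, against 0.994 for each of the others, and lacked 474 probes that the 4 others detected, where the others each lacked 37 to 99. It also had the highest mean signal and the highest median signal of probes detected on no array, 47.7 against 44.8 to 46.4. The part of this background in its detection calls was not tested.

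The signal of named genes was concentrated in few of them. Signal above background was summed over the 12978 named genes, each by its brightest probe, so that the 9034 unnamed probes are left out. The 1736 named genes of the brightest 25% held 80.0% ± 0.35 (SD, n = 5) of this sum. The 70 genes of the brightest 1% held 15.4% ± 0.23 (SD, n = 5), and the dimmest 25% of detected genes held 1.27% ± 0.07 (SD, n = 5). Background was taken as the median probe detected on no array. The brightest named gene was Apoe, the lipid carrier that astrocytes secrete, with log2 signals of 13.87, 13.95, 13.94, 13.98 and 14.01 in replicates 1 to 5. It was followed by Ppia, the peptidyl-prolyl isomerase cyclophilin A, at 14.01, 13.99, 13.93, 13.98 and 13.81. Calm2, which encodes the calcium sensor calmodulin, gave 13.87, 14.03, 13.98, 13.98 and 13.83. These ranges overlap, and the 10 brightest genes lay within 0.12 log2 of each other while the SD over arrays of the brightest 25 ran from 0.04 to 0.18, so that neighbours in this order do not differ beyond their spread. The brightest gene was Fth1, Atp6v0c or Ppia when replicate 2, 4 or 5 was left out, and at least 24 of the 25 brightest genes were shared with every setting tried.

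Neuronal genes, glial genes and genes that every cell uses met at the top of this order. The neuronal ones among the 25 brightest were Syt1, the calcium sensor of vesicle release, Olfm1, a secreted protein of neurons, Ppp3ca, the catalytic subunit of the phosphatase calcineurin, Rtn1, a reticulon of the endoplasmic reticulum, and the tubulins Tuba1a and Tubb2a. Genes of astrocytes were Apoe, Sparcl1, an extracellular matrix protein, Ndrg2, Cst3, the protease inhibitor cystatin C, and Clu, the chaperone clusterin, which is 5 of the 16 astrocyte markers with a probe. Those that every cell uses were Atp6v0c, Atp1b1 and Atp2a2 of the ion pumps, the ferritin chain Fth1, the ribosomal proteins Rpl9, Rpl41 and Rplp0, Tpt1 and the ATP synthase subunit Atp5f1b. Ppia, Calm2, Scd2, Rtn4 and Itm2b complete the 25 and were not assigned to a kind of cell. Of the 100 brightest probes, 65 carried a gene symbol, and the others are unnamed here.

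**Figure D1:**
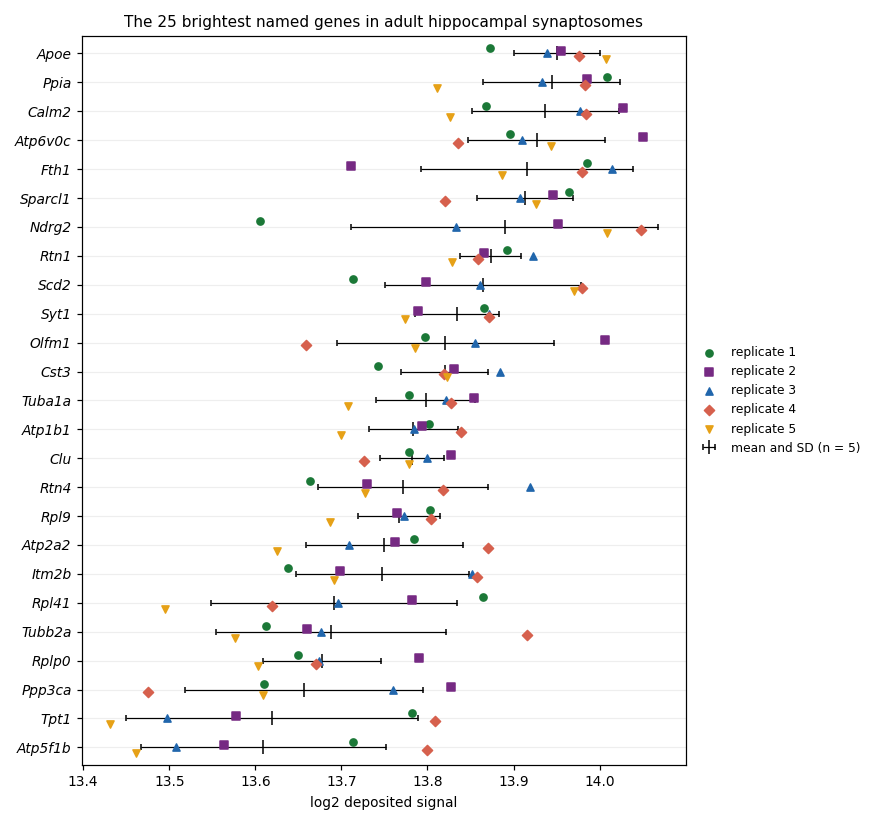
Log2 deposited signal of the 25 brightest named genes (rows, brightest on top), with 1 symbol per adult array and a bar for the mean and SD (n = 5). The points of neighbouring genes overlap throughout, from Apoe at a mean of 13.95 to Atp5f1b at 13.61.

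Presynaptic genes ranged from the very brightest to undetected. Of 42 genes of synaptic vesicles and release with a probe, 32 (76.2%) were detected on all 5 arrays, 3 on some and 7 on none, beside 53.5% over all named genes, and the median percentile of the 32 was 42.9. Syt1 gave log2 signals of 13.87, 13.79, 13.87, 13.87 and 13.77. Syp, the vesicle membrane protein synaptophysin, gave 13.05, 13.20, 12.99, 13.63 and 13.33, at percentile 99.3. Snap25, the SNARE protein of the plasma membrane, gave 13.16, 12.95, 13.04, 13.00 and 12.67, at percentile 98.9. All 5 arrays placed these 3 genes, and the endocytic GTPase Dnm1 at percentile 99.3, far above the middle gene. Vamp2, the vesicle SNARE that pairs with Snap25, lay at percentile 65.6 (8.92 ± 0.21, SD, n = 5), and Stx1a, the third SNARE, at 29.4 (7.00 ± 0.07). Syn1, the phosphoprotein that tethers vesicles, gave only 7.35, 7.58, 7.46, 7.66 and 7.67, at percentile 40.1, and its relative Syn3 was the dimmest detected member at percentile 3.53. Unc13a, which primes vesicles for release, was detected on no array (log2 signals 5.37 to 5.62), as were Syt2 and Sv2c.

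Postsynaptic genes were spread in a like way but with a higher middle. Of 29 genes of postsynaptic scaffolds and signalling, 24 (82.8%) were detected on all arrays, 2 on some and 3 on none, with a median percentile of 80.8 and 10 members in the brightest 10%. Nrgn, which binds calmodulin in dendritic spines, gave log2 signals of 13.16, 13.39, 13.32, 13.49 and 13.14 and lay at percentile 99.4, near Calm2 and Ppp3ca. Camk2a, the alpha subunit of the calmodulin-dependent kinase and a classical dendritic mRNA, gave 6.92, 7.15, 7.41, 6.46 and 6.77 and lay at percentile 28.2. Its signal was low on every array, with the lowest on replicate 4, whereas the probe of the beta subunit Camk2b lay at percentile 97.2, a member named after its values were seen. Shank1, a scaffold of the postsynaptic density, gave 7.05, 7.31, 7.09, 6.47 and 6.80 at percentile 28.3. Shank2, the adhesion molecule Nlgn1 and the kinase Cit were detected on no array, and the scaffold Dlg4 has no probe with a gene symbol here.

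Messenger RNAs known from dendrites were nearly all detected. Of 18 such genes with a probe, 17 (94.4%) were detected on all 5 arrays and Shank2 on none, beside 53.5% over all named genes. Lists of other kinds reached a like share, such as myelin and oligodendrocyte markers at 94.1%. The median percentile of the 17 was 71.5. Besides Nrgn, Camk2a and Shank1, the dendritic list holds Arc, the immediate early gene whose mRNA moves to active synapses, with log2 signals of 9.16, 9.25, 8.80, 8.97 and 9.36 at percentile 68.8. Map2, the microtubule protein of dendrites, gave 10.41, 10.61, 10.37, 8.56 and 9.82 at percentile 80.7. Replicate 4 was lowest for Map2 by more than 1 log2 unit, and without it the mean was 10.30 ± 0.34 (SD, n = 4). Proteins that carry or repress such mRNAs were less bright as a list, with 15 of 17 genes of RNA granules detected on all arrays and a median percentile of 53.6, led by the RNA-binding proteins Celf4 (percentile 96.2) and Purb (95.5), with Syncrip at 0.331 and with Igf2bp1 and Ybx1 on no array.

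Receptors for glutamate were detected no more often than named genes in general. Of 17 with a probe, 9 (52.9%) were detected on all arrays, 4 on some and 4 on none, against 53.5% over all named genes, with a median percentile of 52.2. Gria2, the AMPA receptor subunit that sets calcium permeability, gave log2 signals of 12.84, 12.76, 12.97, 12.77 and 12.69, at percentile 98.6. Grin1, the obligatory subunit of NMDA receptors, gave 12.43, 12.40, 12.35, 12.76 and 12.45, at percentile 97.9, with replicate 4 the highest. Grin2b (percentile 52.2), the metabotropic receptor Grm5 (21.7) and Gria4 (14.4) were dimmer, and Grin2d, Grik3 and Grm4 were detected on no array. Among 13 GABA receptor genes, 9 (69.2%) were detected on all arrays and 4 on none, led by the GABA-A subunit Gabrb1 (97.6), the GABA-B subunit Gabbr2 (97.2) and Gabra5 (90.6), a subunit known for its high level in hippocampus. Their median percentile was 65.2 over the 5 arrays and 51.8 on replicate 4 alone, against 65.8 to 71.3 on the others. The cerebellar subunit Gabra6 was detected on no array.

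Among genes listed for the synthesis and transport of transmitters, those for glutamate and GABA overlapped in brightness, while those for other transmitters were dim or undetected. The brightest was Slc1a1, the glutamate and cysteine transporter of neurons, at percentile 97.7. Gad1, the enzyme that makes GABA, gave log2 signals of 11.93, 11.90, 11.82, 12.04 and 11.95 and lay at percentile 96.2. Slc17a7, the vesicular glutamate transporter of hippocampal principal neurons, gave 8.55, 8.74, 8.80, 8.77 and 8.55 and lay at percentile 61.0. The second GABA enzyme Gad2 gave 8.71, 8.92, 8.95, 7.44 and 8.62, low on replicate 4 by itself, and 8.80 ± 0.16 (SD, n = 4) without it. In all, 6 of 8 genes listed for glutamate and GABA were detected on all arrays, and the transporters Slc17a8 and Slc6a11 on none. Of 12 genes of monoamine, acetylcholine and glycine neurons, whose cell bodies mostly lie outside the hippocampus, 5 (41.7%) were detected on all arrays and 7 on none. Those 5 were at the edge of detection, from the glycine transporter Slc6a5 at percentile 8.92 and Tph2, the serotonin enzyme, at 8.26 to Th, Dbh and Slc18a3 at 3.73, 2.87 and 1.34, and 0 of them remained at a detection threshold of 0.01. The transporters for serotonin (Slc6a4), noradrenaline (Slc6a2) and dopamine (Slc6a3) were detected on no array.

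Neuropeptides and the granins that pack them into dense-core vesicles were detected without exception, 19 of 19 on all 5 arrays, beside 53.5% over all named genes. Their median percentile was 80.5. Chgb, which encodes secretogranin B of the vesicle core, gave log2 signals of 13.27, 13.53, 13.41, 13.42 and 13.26 at percentile 99.5. Cck, the peptide cholecystokinin of one class of interneurons, gave 13.08, 12.90, 13.05, 12.74 and 12.66 at percentile 98.8. Sst (88.0) and Npy (86.9), peptides of dendrite-targeting interneurons, followed, and the stress peptide Crh was the dimmest of them. Of the proteins that mark interneurons or granule cells, Reln (92.1) and Calb1 (86.9) were bright, Pvalb lay at 40.2 and Calb2 at 13.8. Among 18 immediate early genes, 14 (77.8%) were detected on all arrays, with Jund (94.1) and Egr1 (81.0) the brightest, Fos at 23.7 and Nr4a1 at 0.504, and Egr3 on no array. Fos, a marker of recent activity, varied between the arrays, with log2 signals of 6.63, 6.90, 6.62, 6.31 and 7.31 and replicate 5 the highest.

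Of 11 neuronal transcription factors and nuclear proteins, 9 were detected on all arrays with a median percentile of 33.0, led by Neurod6 (89.2) and Myt1l (88.8), while Rbfox3, which encodes the nuclear antigen NeuN, lay at 0.620. Of 35 voltage-gated channel genes, 27 (77.1%) were detected on all arrays and 4 on none, with a median percentile of 56.6. The auxiliary subunits Scn3b (99.4) and Cacna2d1 (97.0) were the brightest, the axonal potassium channel Kcna1 was the dimmest at 5.72 and its relative Kcna2 was detected on no array. The cytoskeleton of neurons was bright, with 28 of 29 genes (96.6%) on all arrays and a median percentile of 88.2. Gap43, a growth protein of axon terminals, gave 12.25, 12.42, 12.35, 12.61 and 12.08 at percentile 97.4, and the neurofilament Nefl gave 12.22, 12.16, 12.39, 12.58 and 12.19 at 97.3.

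**Figure D2:**
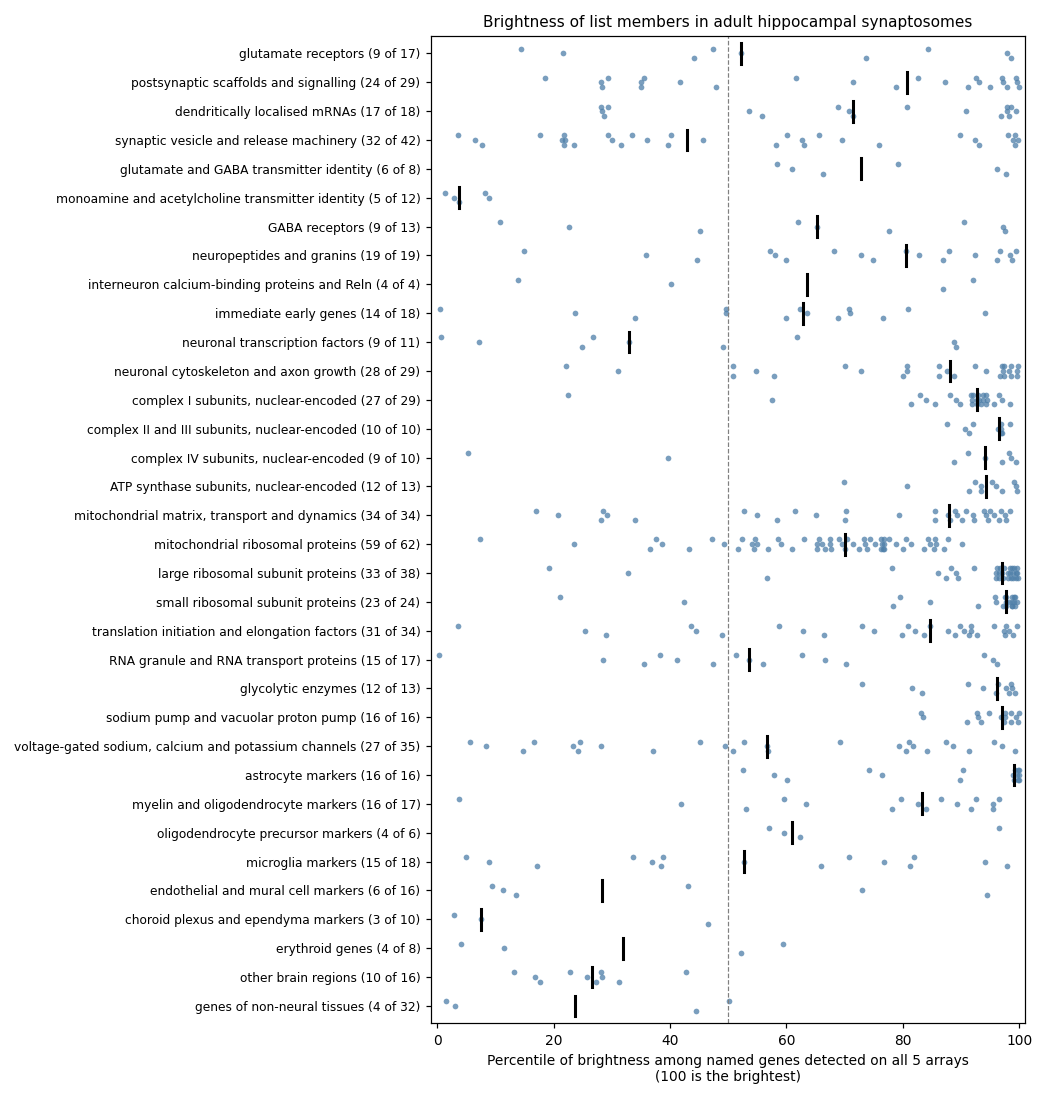
Percentile of brightness (horizontal axis, 100 is the brightest of 6941 named genes) of every list member detected on all 5 adult arrays, with 1 point per gene, a black bar at the median of the list and a dashed line at 50. Row names give the detected members out of those with a probe; astrocyte, cytosolic ribosomal, glycolytic, pump and respiratory chain genes crowd at the right, with list medians from 92.8 to 99.1, and monoamine and choroid plexus genes lie at the left.

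Mitochondrial genes of the nuclear genome were among the brightest groups. Of 62 genes of the respiratory chain and ATP synthase with a probe, 58 were detected on all 5 arrays and 2 on none, 43 lay in the brightest 10% and 53 in the brightest 25% of detected genes. The median percentile was 92.8 for complex I (27 of 29 detected on all arrays), 96.6 for complexes II and III (10 of 10), 94.1 for complex IV (9 of 10) and 94.4 for ATP synthase (12 of 13). Atp5f1b, the catalytic beta subunit of ATP synthase, gave log2 signals of 13.71, 13.56, 13.51, 13.80 and 13.46. Cox6a1 of cytochrome oxidase gave 13.32, 13.53, 13.43, 13.63 and 13.40 at percentile 99.6, and Cox4i1 gave 12.83, 12.88, 12.80, 13.11 and 12.69 at 98.7. Each of these 3 was highest on replicate 4. Cox8b, the isoform of heart and skeletal muscle, lay at 5.36, and Ndufb4 and Ndufs4 of complex I were detected on no array although complex I is assembled from all its subunits. Enzymes, carriers and dynamics proteins of mitochondria were detected in 34 of 34 cases with a median percentile of 88.0, led by the adenine nucleotide carriers Slc25a4 (98.5) and Slc25a5 (97.8) and with Opa1, a GTPase of inner membrane fusion, dimmest at 17.0. None of the 15 mitochondrially encoded genes looked for, and none of 6 RNAs retained in the nucleus, has a probe with a gene symbol.

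Genes of the pumps that use ATP and of glycolysis were also bright. All 16 genes of the sodium pump and the vacuolar proton pump, which fills synaptic vesicles, were detected on all arrays, with a median percentile of 97.1 and 14 in the brightest 10%. Atp6v0c, the membrane ring subunit of the proton pump, gave 13.90, 14.05, 13.91, 13.84 and 13.94, and Atp1b1, the beta subunit of the sodium pump, gave 13.80, 13.79, 13.78, 13.84 and 13.70. Of 13 glycolytic enzymes, 12 were detected on all arrays with a median percentile of 96.2. The neuronal enolase Eno2 gave 12.74, 12.68, 12.66, 13.09 and 12.64 with replicate 4 the highest, and the brightest was Aldoc (99.4), an aldolase that in brain marks astrocytes.

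Cytosolic ribosomal proteins were the brightest large group. Of 62 genes with a probe, 56 were detected on all 5 arrays, 1 on some and 5 on none, and 42 lay in the brightest 10%. The median percentile was 97.1 for 33 detected proteins of the large subunit and 97.8 for 23 of the small subunit. Together with their undetected members they gave 3.40% ± 0.13 and 2.39% ± 0.14 (SD, n = 5) of the summed signal of named genes above background. Rpl9 gave log2 signals of 13.80, 13.76, 13.77, 13.80 and 13.69, Rplp0, the stalk protein that binds elongation factors, 13.65, 13.79, 13.67, 13.67 and 13.60, and Rps15a 13.42, 13.52, 13.66, 13.36 and 13.37. Rpl5 (19.2) and Rps16 (21.0) were the dimmest detected members, and Rpl11, Rpl12, Rpl34 and Rps19 were detected on no array with log2 signals of 5.30 to 5.68, at the level of background. Ribosomal protein genes have many processed copies in the genome, and whether a probe also reads such a copy was not tested. Of 34 initiation and elongation factors and related genes, 31 were detected on all arrays with a median percentile of 84.7, among them Tpt1 (99.7), Eef2 (98.9), which moves the ribosome along the mRNA, and Eef1a1 (98.3), which brings the transfer RNA, with log2 signals of 12.65, 12.66, 12.62, 12.67 and 12.63 and an irregular detection p. The repressor Eif4ebp2 lay at 3.57. Ribosomal proteins of the mitochondrion were detected as often, 59 of 62, but with a median percentile of 70.1 and 1 member (Mrps33, 90.2) in the brightest 10%.

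Because mRNAs of the translation machinery are known for a run of pyrimidines at their start, the sequence around the annotated start was read for the brightest genes in RefSeq (build GRCr8). Shown are the 3 brightest large-subunit, small-subunit and other genes and the brightest gene of the translation factor list that had an entry, from 15 bases before the start to 15 from it on, 5′ to 3′ on the gene's strand, with the longest run of 8 or more C or T in capitals.
Rpl9, chr14:43247575-43247604, plus strand: gacgaaggacgTTCTCTCTTTgccccatct
Rpl41, chr7:1563483-1563512, minus strand: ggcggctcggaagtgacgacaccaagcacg
Rplp0, chr12:46718376-46718405, minus strand: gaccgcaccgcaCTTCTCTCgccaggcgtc
Rps15a, chr1:181860270-181860299, minus strand: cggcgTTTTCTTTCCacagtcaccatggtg
Rps27, chr2:177964592-177964621, minus strand: atttccgctttcgCTCCTTTCCggcggtga
Rps10, chr20:5700730-5700759, minus strand: gccgcgcacgCCCCTTCCTTTCCagcctcc
Tpt1, chr15:57566129-57566158, plus strand: CCCCCCTCCCCCCgagcgccgctccggctg
Apoe, chr1:88485802-88485831, minus strand: gccttgttaggaggCTTCTCCTactgccac
Ppia, chr14:85493201-85493230, plus strand: gcgaggctcgtgccgctttgcagacgccgc
Atp6v0c, chr10:13705828-13705857, minus strand: atgggggcgtggcccatatcatgtgacgcg

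Such a run stood around 5 of the 6 ribosomal protein starts shown. The runs of Rps15a and Tpt1 end before the annotated start and so lie outside the annotated mRNA. Runs on either side of the start enter the shares that follow. Over all ribosomal protein genes detected on all 5 arrays with an entry, 35 of 48 (72.9%) had such a run, and 7 of 27 (25.9%) of the translation factors. Among all annotated genes it was 3122 of 27457 (11.4%), with a gene of several starts taken at its most upstream one. By brightness, the share was 9.91% in the dimmest 25% of detected genes, 13.6% in the brightest 25% and 16.3% in the brightest 10%, and 11.8% in the brightest 10% without ribosomal proteins and translation factors. Among genes detected on no array it was 10.1%. The sequence TATAAA, searched on both strands of the 300 bases from 250 before to 50 after the start, stood in 6.93% of genes detected on all arrays, in 19.9% of those detected on none and in 14.3% of all annotated genes, and the median GC content of these 300 bases was 61.0%, 50.7% and 52.3%. An annotated start may lie some bases from the one used in hippocampus, and a match is a description of these letters.

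**Figure D3:**
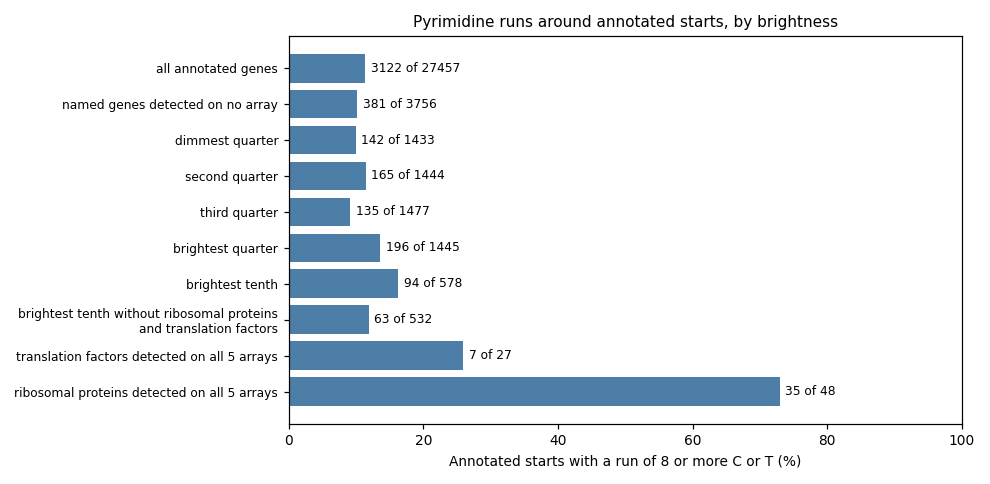
Share of annotated starts (horizontal axis, percent) with a run of 8 or more C or T within 15 bases either side, for all annotated genes, named genes detected on no array, classes of brightness and genes of translation, with the count beside each bar. Ribosomal proteins reach 72.9%, against 9.14% to 16.3% for the classes of brightness.

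Astrocyte markers had the highest median percentile of the 34 lists with a probe. Lists and members were chosen with earlier results of these data known, so this order depends in part on that choice. All 16 with a probe were detected on all 5 arrays, their median percentile was 99.1 (98.9 to 99.2 on single arrays) and 10 lay in the brightest 10%. Slc1a3, the glutamate transporter GLAST, gave log2 signals of 13.45, 13.46, 13.51, 13.50 and 13.54 at percentile 99.6. Slc1a2, the glutamate transporter GLT-1, gave 9.34, 9.58, 9.51, 9.52 and 9.47 at 74.3, and the water channel of astrocyte endfeet Aqp4 gave 8.55, 8.49, 8.56, 8.43 and 9.12 at 60.2 with replicate 5 the highest. The bicarbonate carrier Slc4a4 was the dimmest at 52.5, with 8.48, 8.65, 8.42, 7.32 and 8.07. In such bulk RNA, fewer cells or processes of a type and less RNA in each cannot be told apart. The 16 genes held 2.30% ± 0.13 (SD, n = 5) of the summed signal of named genes above background. Several of them, such as Apoe, Clu and Cst3, are also made by other brain cells, and no probe is annotated to Gfap or Glul.

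Oligodendrocytes and microglia were represented by most of their markers. Of 17 myelin and oligodendrocyte markers, 16 (94.1%) were detected on all arrays and 0 on none, with a median percentile of 83.3. Mog, a surface protein of the myelin sheath, gave 11.17, 10.83, 11.11, 11.30 and 11.05 at percentile 91.8, and Mbp, its structural protein, gave 10.07, 10.79, 10.56, 9.17 and 9.98 at 82.6. Mbp was lowest on replicate 4 and Mobp highest there, at 10.01, 10.02, 10.05, 10.78 and 10.37, so that the 2 myelin genes did not move together over the arrays. The transcription factor Olig1 (96.5) and the membrane protein Mal (95.6) were the brightest, and Aspa, an enzyme of oligodendrocytes, the dimmest (3.75). Of 6 precursor markers, 4 were detected on all arrays, with Pdgfra, the receptor that defines these cells, at 62.3 and Cspg4 at 57.0. Of 18 microglia markers, 15 (83.3%) were detected on all arrays and 2 on none, with a median percentile of 52.7. Ctss, the lysosomal protease cathepsin S, gave 12.77, 12.30, 12.27, 12.72 and 12.33 at 97.9, Aif1, the cytoskeletal protein IBA1, 11.44, 11.40, 11.43, 11.78 and 11.32 at 94.2, and C1qb of complement lay at 82.0, whereas the fractalkine receptor Cx3cr1 lay at 4.90 and Ptprc and Spi1 were detected on no array.

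Markers of vessels and choroid plexus were mostly dim or undetected, and those of blood were detected about as often as named genes in general. Of 16 endothelial and mural markers, 6 (37.5%) were detected on all arrays and 5 on none, among them the cadherin Cdh5 and the receptor Tek, and their median percentile of 28.4 was 14.4 without replicate 3 and 17.3 without replicate 4, where 7 members in place of 6 counted as detected. Igfbp7, a secreted protein that other cells also make, reached 94.5, and Itm2a, the next brightest, 72.9. Cldn5, the claudin of the blood-brain barrier, gave 7.97, 7.66, 7.51, 7.47 and 7.84 at 43.1. Of 10 choroid plexus and ependyma markers, 3 were detected on all arrays (1 at a detection threshold of 0.01) and 6 on none, and Ttr, the most abundant transcript of the choroid plexus, gave 7.87, 7.73, 7.96, 7.68 and 8.12 at 46.6. Of 8 erythroid genes, 4 were detected on all arrays (2 at a threshold of 0.01), with the globins Hba-a1 at 59.4 and Hbb at 52.3 and with Alas2 and Ahsp, which belong to maturing red cells, on no array. Globin genes are near-identical copies that probes may share.

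Genes of other places served to read the edge of detection. Of 16 genes typical of other brain regions, 10 (62.5%) were detected on all arrays, beside 53.5% over all named genes, all 10 of them below percentile 50, from the striatal regulator Rgs9 at 42.7 to Gal at 13.3, and the hypothalamic peptides Oxt, Hcrt and Gnrh1 were detected on no array. Of 32 genes of non-neural tissues, 4 (12.5%) were detected on all arrays (2 at a threshold of 0.01) and 24 on none, among them Ckm of muscle and the insulin gene Ins1, with skeletal muscle actin Acta1 the brightest at percentile 50.2. The detected genes nearest to the threshold were Cyp2t1, Thoc3 and C4bpb, each with a highest detection p of 0.0497, and those just outside were Kif26b, Tmem100 and Taf5l1, each detected on 4 arrays with a highest p of 0.0509. Both sets lay at mean log2 signals of 5.93 to 6.00.

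**Figure D4:**
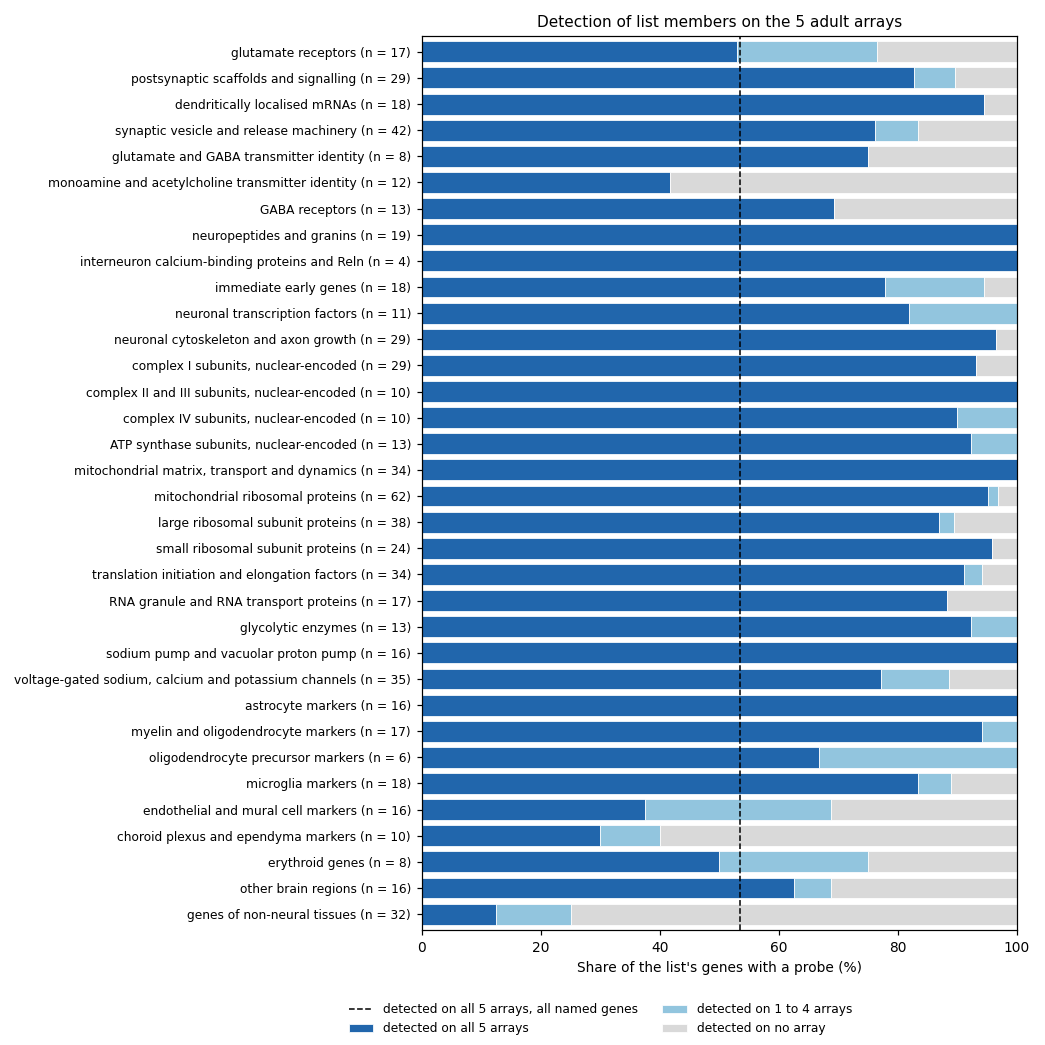
Share of the genes of each list with a probe (horizontal axis, percent) that were detected on all 5 adult arrays, on 1 to 4 or on none, with the share of all named genes detected on all 5 (53.5%) as a dashed line. Lists of monoamine, endothelial, choroid plexus, erythroid and non-neural genes fall to the left of the line and glutamate receptors lie on it at 52.9%, while all other lists lie to its right.

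Most genes varied little between the 5 arrays. The SD over the 5 arrays of the log2 signal, with each array centred on its median, had a median of 0.143 over the 6941 genes, and replicate 4 was the array farthest from a gene's mean for 53.9% of them. Without it the median SD was 0.102, and without any other array 0.143 to 0.151. Steady genes of the brightest 25% were Rnpep, an aminopeptidase (SD 0.0209), the splicing factor Luc7l3 (0.0227), Tuba1a (0.0232), the nuclear regulator Ccar2 (0.0247) and Tmed10 of vesicle traffic (0.0271).

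The genes with the largest spread were low on replicate 4. Bmpr2, a receptor for bone morphogenetic proteins, gave log2 signals of 10.21, 10.45, 10.33, 8.43 and 9.46. Sv2b, a membrane protein of synaptic vesicles, gave 12.64, 13.23, 13.06, 11.23 and 12.71, and Ly6h, a surface protein of neurons, 9.65, 10.14, 10.10, 8.23 and 9.24. The same held for Map2, Thoc2 of the mRNA export complex, the ion channel partner Pex5l, the receptor Acvr1c, the kinase Cdk14, the calcium sensor Hpcal4 and the scaffold Pals2, with SDs from 0.677 to 0.832 over the 10 genes. Replicate 5 was the next lowest for all of them but Sv2b. Of the 100 genes with the largest SD, 96 were lowest and 4 highest on replicate 4, and 1 of these 10 genes stayed among the 10 most variable without it. In all, 87 genes lay more than 1 log2 unit below the mean of the 4 other arrays on replicate 4 and 3 lay above it, and no gene did so on any other array. Beyond 0.5 log2, replicate 4 was lower for 456 genes and higher for 378. The 87 include Gria3, Gad2, Gabra2, Sv2b, Map2, Mbp, Slc4a4, Eif5a, Rps2 and Rpl13a, members of neuronal, glial and translation lists. The shares differed between lists. More than 0.5 log2 lower on replicate 4 were 6 of 17 dendritic, 7 of 24 postsynaptic and 6 of 32 presynaptic genes, against 6.57% of all detected genes. It was 2 of 16 astrocyte markers, 1 of 59 mitochondrial ribosomal proteins and 0 of 12 glycolytic enzymes. The median genomic span was 56.8 kb for the 87 genes, 36.9 kb for 453 of the 456 lower and 17.0 kb for the 378 higher on replicate 4, against 21.8 kb over all detected genes. The 63 genes more than 0.5 log2 higher on replicate 2 had a median span of 55.8 kb and the 28 higher on replicate 3 one of 62.2 kb, each against a mean that includes replicate 4. The part of gene length in these values was not tested.

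**Figure D5:**
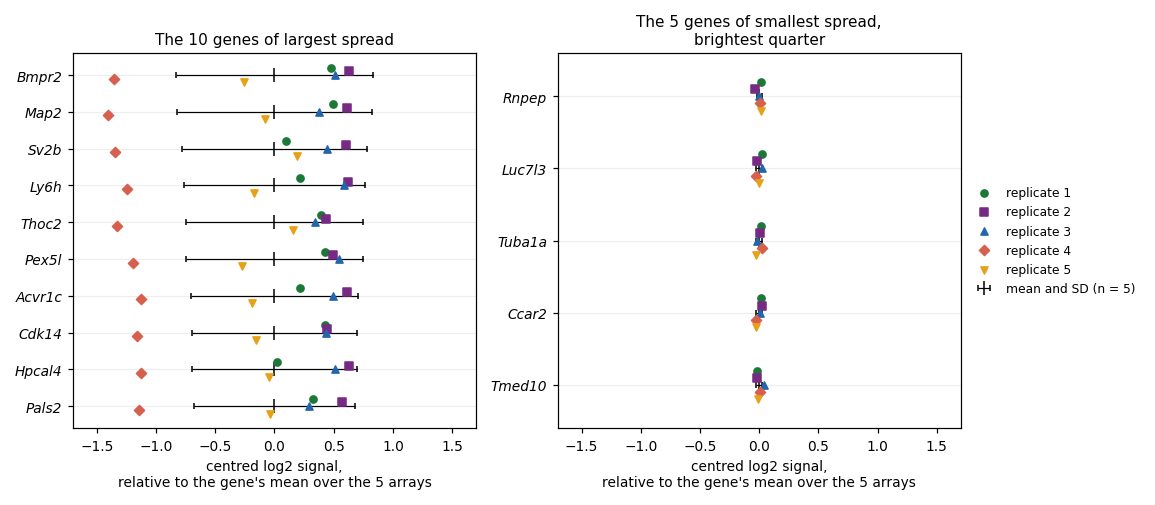
Centred log2 signal relative to the gene's mean over the 5 arrays (horizontal axis) for the 10 genes with the largest SD (left) and the 5 with the smallest SD in the brightest 25% (right), with 1 symbol per array and bars for the mean and SD (n = 5). On the left, replicate 4 lies lowest for all 10 genes, more than 1 log2 unit below their mean, while on the right all 5 arrays lie close to 0.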

How the data were processed

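RNA of hippocampal synaptosomes was labelled by oligo(dT) priming, hybridized to Illumina RatRef-12 arrays and read by the authors in GenomeStudio (version 1.0.6, as the notes that the submitters gave on their processing name it). The deposited intensity is the average bead signal of a probe, with no background subtraction and no normalization, and the second deposited table holds the same values (largest difference 0). The deposited p-value gives the detection over negative control beads of the same array. The authors' normalized values are not used here.

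The 5 adult arrays were used as deposited, on a log2 scale, and no groups were compared, so no test was made. Probes with 1 symbol in the platform annotation (13192, with 9034 unnamed and 0 with several) were updated by Entrez ID in 13151 cases and kept as annotated in 41. A gene was represented by its brightest probe. Of 210 genes with several probes, 94 had only some detected. Genes were described in 36 lists, 34 of them with a probe, and the members and lists were chosen with earlier results of these data known. Named genes are the 25 brightest, the leading markers of each list, its 2 brightest, its dimmest and up to 3 undetected members, the 10 largest and 5 smallest SDs, and 3 genes on each side of the threshold. A few further names were added after their values were seen.

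In 234 rows the detection p was no multiple of the step shared by the others, and it did not follow the signal. Of 10 rows with signals over 500 on every array that were not detected on all, 10 were such rows. Alternatives were a detection threshold of 0.01, fewer arrays required, each array left out, neqc of limma 3.58.1 (R 4.3.3, offset 16), quantile normalization, median scaling, other ways to combine probes, linear means, ranks over all named genes and uncentred signals. Leaving out the 234 rows was added after seeing the data. The calculations were made with Python 3.11.15 and pandas 2.3.3 and were tested on simulated data.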

Additional observations from a re-analysis of the deposited data

Results flagged for a closer look

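Among the values reported, an array was far from the other 4 where its gap to the nearest of them took up a large part of the whole range, by Dixon's ratio at the 95% level, which chance passes in about 1 in 20 groups. This was looked at for 5 array measures, 34 list medians and 162 detected named genes, and 2, 2 and 11 passed. That rate does not hold for genes named by their SD over the same arrays, such as Thoc2. Nor does it hold for the correlations and the counts of lacking probes, since each array's value also depends on the other arrays. Replicate 4 had the lowest mean correlation with the others (0.988 against 0.994, ratio 0.919) and the highest number of probes that it alone lacked (474 against 37 to 99, ratio 0.858). The median percentile of GABA receptors was 51.8 on replicate 4 against 65.8 to 71.3 (ratio 0.718), and that of small ribosomal subunit proteins 97.1 against 97.9 to 98.1 (ratio 0.764).

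For genes, the ratios were taken on deposited log2 signals without centring, so that a shift of a whole array enters them. Of the 11 genes, 7 stood apart on replicate 4. Gad2 (7.44 against 8.62 to 8.95, ratio 0.782) and Thoc2 (7.74 against 9.16 to 9.54, ratio 0.787) were low there on the log2 scale. Grin1 (12.76 against 12.35 to 12.45, ratio 0.755), Eno2 (13.09 against 12.64 to 12.74, ratio 0.785), Aif1 (11.78 against 11.32 to 11.44, ratio 0.744), Mrps15 (6.57 against 6.05 to 6.14, ratio 0.817) and the hypothalamic peptide gene Pmch (6.61 against 6.43 to 6.48, ratio 0.724) were high there. The other 4 were Aqp4 on replicate 5 (9.12 against 8.43 to 8.56, ratio 0.812), Kcna1 on replicate 5 (6.25 against 6.10 to 6.14, ratio 0.717), Mrps33 on replicate 5 (10.60 against 10.93 to 11.03, ratio 0.757) and Slc6a5 on replicate 1 (6.42 against 6.17 to 6.20, ratio 0.885). Over all 6941 detected genes, again without centring, 643 (9.26%) stood apart, 502 of them on replicate 4, of which 88 were low and 414 high. With each array centred on its median, Gad2 lay at -0.44 on replicate 4 against 0.81 to 1.04. The gaps of Grin1 (4.88 against 4.44 to 4.64) and Pmch (-1.26 against -1.47 to -1.33) narrowed with centring. Ratios of centred signals were not calculated.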

How the results depend on the processing

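No paired analysis was possible because no groups were compared and no test was made. The numbers of probes and of named genes detected stayed within 1.5 times of the reported count under every alternative. So did the number of list members detected over all lists together, the lists above percentile 75 and the 25 brightest genes. The median SD over arrays was 0.0983 in place of 0.143 with neqc and ran from 0.102 to 0.151 with 1 array left out, lowest without replicate 4. At a detection threshold of 0.01, detected members went from 5 to 0 for monoamine and acetylcholine genes, from 3 to 1 for choroid plexus, from 4 to 2 for erythroid and from 4 to 2 for non-neural genes, and the other 30 lists stayed within 1.5 times. Normalization moved no list median by more than 0.303 percentile points. Little movement was possible, since median scaling cannot change the order of the mean signals. Neqc and quantile normalization keep the order of the probes within each array. Without replicate 4, 9 of 34 list medians moved by more than their SD over arrays, with erythroid genes from 31.9 to 15.8, endothelial and mural genes from 28.4 to 17.3 and monoamine genes from 3.73 to 7.36. When all members were ranked among all 12978 named genes, 32 of the 34 medians moved by more than their SD over arrays, and the shifts over all 34 ran from -1.32 to 32.4 points. Signals near background limit the order of the dimmest genes, and the spacing of the brightest is limited by their spread.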
